A study of Mus musculus with 9 samples.

Results

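Secreted signals that myoblasts are known to make were followed: the chemokines Ccl2, Ccl7, Cxcl1, Cxcl5 and Cxcl12, the growth factor Csf1, and the cytokines Il6 and Lif. The genes were given as a list of symbols, which matched 8 of the 47729 genes of the count table. Ccl2 was put on the list because its level was higher in both knockouts, and its differences from WT are therefore described with no test. The cells were C2C12, a permanent mouse line of muscle precursors that fuse into myotubes after a switch to horse serum. The labels name that line and its culture medium, although their tissue field reads Whole Muscle. Poly(A) RNA was sequenced from cells that had received a guide RNA with no target (WT), from cells in which CRISPR-Cas9 had knocked out the clock gene Per1 (Per1KO), and from cells in which it had knocked out Per2 (Per2KO). Each was sampled undifferentiated (day 0) and on days 3 and 5 of differentiation. That gave 9 libraries, 1 for each of the 3 genotypes on each of the 3 days, so no value at a given genotype and day has a replicate, and the labels do not say whether a knockout line was 1 clone or a pool.

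Chemokines are small secreted proteins that draw leukocytes along a gradient. Ccl2 and its neighbour Ccl7 act through the receptor Ccr2 on monocytes, Cxcl1 and Cxcl5 through Cxcr2 on neutrophils, and Cxcl12 through Cxcr4 on many cells, muscle precursors among them. Csf1 is the survival factor of macrophages, which read it through Csf1r, while Il6 and Lif signal through receptors that share the gp130 chain Il6st. In injured muscle such signals recruit the macrophages that clear debris, and Lif and Il6 also act on the muscle precursors themselves.

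The libraries held 5020385 to 6773320 counts for WT and 41997763 to 48051824 for the knockouts. The WT titles alone carry a suffix, whose meaning the labels do not give, and the knockout column headers alone carry the name of the cell line. In every difference from WT, genotype therefore cannot be told apart from depth or from anything that these names may mark. The 3 WT libraries are also shared by both knockout comparisons. The names Per1KO and Per2KO are those of the labels: Per1 mRNA was at 30.9 to 35.5 CPM (counts scaled to library size) in WT, 20.8 to 32.4 in Per1KO and 16.4 to 32.9 in Per2KO, and Per2 at 9.73 to 20.4, 6.58 to 10.6 and 3.50 to 9.12 CPM. The fall of Per2 in Per2KO passed the test (edgeR quasi-likelihood test, log2 fold change -1.02 ± 0.24 SE, adjusted p = 0.0230) but not without day 0 (0.0660), day 5 (0.205) or Per1KO (0.0641), whereas Per1 in Per1KO had -0.34 ± 0.22 (adjusted p = 0.310). Between the knockouts neither target differed past the threshold (0.07 ± 0.21 for Per1 and 0.41 ± 0.23 for Per2). All 8 muscle markers, such as Des and Myod1, had counts in every library. Among 11 macrophage and leukocyte markers, Adgre1, Tyrobp, C1qa and C1qb had 0 counts in all 9 libraries, and the 9 markers other than Cd14 and Cd68 summed to at most 1.10 CPM in any library. The whole macrophage list summed to 8.92 to 13.8 CPM in WT and 7.05 to 15.7 in the knockouts, and the 5 endothelial markers, of which Emcn had 0 counts everywhere, to 0.911 to 1.97 and 0.830 to 3.62 CPM.

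Levels of different genes were compared per transcript length, as TPM, the share of a gene among all transcripts of its library. Csf1 had the highest median over the 9 libraries, 96.8 TPM (range 68.5 to 155). Ccl2 followed at 68.1 TPM (7.03 to 113) and Ccl7 at 56.3 TPM (31.0 to 87.3). A lower tier held Cxcl5 at 13.1 TPM (0 to 15.6), Cxcl12 at 11.8 (1.98 to 47.7), Lif at 5.66 (4.07 to 8.61) and Cxcl1 at 3.92 (0.468 to 13.8). Il6 came last at 0.244 TPM (0.0780 to 1.12). Between neighbours in that order only the ranges of Ccl7 and Cxcl5 did not overlap. The order depended on genotype: in WT Ccl2 had a median of 11.2 TPM, below Ccl7 at 31.7 and Cxcl12 at 16.9, and in the knockouts 92.5 TPM, beside 79.1 for Ccl7 and 8.04 for Cxcl12. Csf1 was at a median of 107 TPM in WT and 96.3 TPM in the knockouts. Taking the mean transcript length placed Cxcl12 above Cxcl5, and taking the longest protein-coding transcript placed Cxcl1 above Lif.

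**Figure D1:**
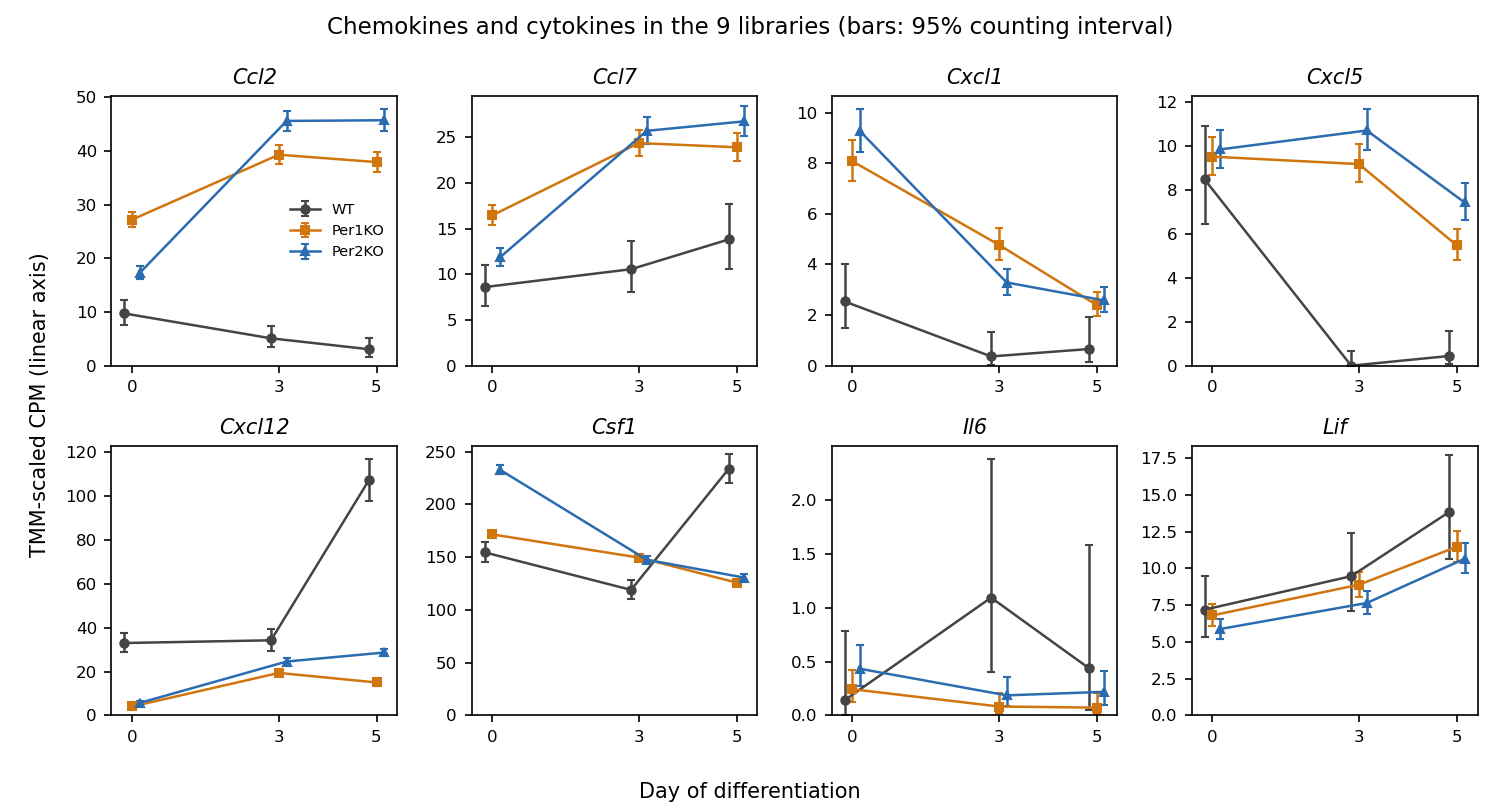
TMM-scaled CPM (linear axis, a scale of its own for each gene) of each of the 8 genes against day of differentiation (0, 3 and 5), with 1 point per library, lines joining the libraries of a genotype and bars for the exact 95% counting interval. The Ccl2 points of the 6 knockout libraries lie above the 3 WT points at 3.07 to 9.73 CPM, those of Cxcl12 lie below the WT points, and Cxcl5 in WT leaves the knockout levels after day 0.

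The genes Ccl2, Ccl7, Cxcl5 and Cxcl1 lie in 2 chemokine clusters. Ccl2 (chromosome 11, 82035571 to 82037453) and Ccl7 (chromosome 11, 82045712 to 82047525) are neighbours on the plus strand, with 8258 bases and 0 protein-coding genes between them. Cxcl5 (chromosome 5, 90759360 to 90761624) and Cxcl1 (chromosome 5, 90891241 to 90893115) lie 129616 bases apart, with Ppbp, Pf4, Cxcl3 and Cxcl15 between them. Cxcl12 is on chromosome 6 (117168535 to 117181367), Csf1 on chromosome 3 (107741048 to 107760469, minus strand), Il6 on chromosome 5 (30013114 to 30019981) and Lif on chromosome 11 (4257557 to 4272514). All positions are those of GENCODE M21 on GRCm38. Ccl2 overlaps the antisense gene Gm17268, which had 0 counts in all 9 libraries. At most 3.60% of the 31-base words of any of these transcripts, that of Cxcl5, occur in another gene.

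RefSeq promoter windows (GRCm38.p6, 250 bases before to 50 after the start) were at hand for 5 of the 8 genes: Cxcl1, Cxcl12, Csf1, Il6 and Lif. They were searched on both strands for the 10-letter NF-kB consensus, the AP-1 motif TGANTCA, the E-box CACGTG, which is the site of the clock factors that Per proteins repress, and the TATA motif TATAAA. The NF-kB consensus was found in 3 of the 5, at positions -71 and -70 from the start of Cxcl1 (overlapping matches on opposite strands), -154 of Csf1 and -44 of Il6, and 4.53% of 32544 windows hold it. The AP-1 motif was found at -249 of Il6 and -228 of Lif (7.79% of windows). Neither the E-box (7.17% of windows) nor TATAAA (13.6%) was found in any of the 5. Cxcl12 and Lif held no NF-kB match, and no link between the motifs and the levels was tested. The 250 bases before the start are shown for the 3 genes with an NF-kB match, in capitals, and for Cxcl12, which holds none. They are chr5:90890995-90891244 (plus strand) for Cxcl1, chr5:30012864-30013113 (plus) for Il6, chr3:107760470-107760719 (minus) for Csf1 and chr6:117168285-117168534 (plus) for Cxcl12.
Cxcl1: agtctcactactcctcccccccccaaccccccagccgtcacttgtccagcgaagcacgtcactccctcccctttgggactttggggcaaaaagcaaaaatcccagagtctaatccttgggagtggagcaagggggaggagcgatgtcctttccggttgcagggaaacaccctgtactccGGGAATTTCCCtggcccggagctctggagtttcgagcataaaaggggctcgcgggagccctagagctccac
Il6: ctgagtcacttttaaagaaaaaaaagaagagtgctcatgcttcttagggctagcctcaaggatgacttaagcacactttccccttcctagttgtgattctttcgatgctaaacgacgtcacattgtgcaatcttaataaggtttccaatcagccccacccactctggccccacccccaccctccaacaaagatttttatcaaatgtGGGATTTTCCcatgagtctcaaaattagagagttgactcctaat
Csf1: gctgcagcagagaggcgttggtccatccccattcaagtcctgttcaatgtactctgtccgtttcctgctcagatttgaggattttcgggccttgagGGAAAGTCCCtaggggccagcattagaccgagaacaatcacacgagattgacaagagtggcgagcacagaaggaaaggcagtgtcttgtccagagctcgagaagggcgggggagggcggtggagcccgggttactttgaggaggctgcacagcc
Cxcl12: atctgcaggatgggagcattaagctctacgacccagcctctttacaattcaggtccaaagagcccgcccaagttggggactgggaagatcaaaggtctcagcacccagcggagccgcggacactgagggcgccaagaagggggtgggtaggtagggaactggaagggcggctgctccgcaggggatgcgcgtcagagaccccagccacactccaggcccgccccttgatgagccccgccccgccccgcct

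Ccl2, the main attractant of monocytes, was at 9.73, 5.10 and 3.07 CPM in WT on days 0, 3 and 5 (69, 28 and 14 counts). In Per1KO it was at 27.2, 39.3 and 37.9 CPM, and in Per2KO at 17.4, 45.6 and 45.8 CPM. All 6 knockout libraries lay above all 3 WT libraries, as for 9.83% of the genes tested, and the gene was chosen on this relation. The ratio was larger on the later days. In Per1KO the level was 2.80 times that of WT on day 0 (95% counting interval 2.20 to 3.62), 7.71 times on day 3 (5.32 to 11.6) and 12.4 times on day 5 (7.34 to 22.7). In Per2KO the ratios were 1.78 (1.40 to 2.31), 8.95 (6.17 to 13.5) and 14.9 (8.85 to 27.3). These are counting intervals of single libraries, and both knockouts share the WT libraries. Over the 3 days the fitted log2 difference from WT was 2.41 ± 0.48 (SE) in Per1KO and 2.42 ± 0.49 in Per2KO, and 3.21 and 3.46 without the libraries of day 0.

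The course of Ccl2 with differentiation ran in opposite directions. In WT the day 5 library held 0.316 times the day 0 level (0.164 to 0.566), in Per1KO 1.39 times (1.29 to 1.50) and in Per2KO 2.64 times (2.43 to 2.86). Of the 13324 genes tested, 9.47% were likewise lower in WT and higher in both knockouts on day 5. In the fit over all genotypes the day 5 effect was 0.38 ± 0.45 (adjusted p = 0.523), an average over both directions. In the 6 knockout libraries alone Ccl2 was higher on day 3 (log2 fold change 0.94 ± 0.22, adjusted p = 0.0119) and on day 5 (0.92 ± 0.22, adjusted p = 0.0113). The levels of these libraries entered the choice of the gene, so these p-values are not free of that choice. The fitted difference between knockouts and WT in the response to differentiation (the interaction of either knockout with days 3 and 5) was 2.16 ± 0.50. It is given with no test, because the gene was chosen on knockout and WT levels in the same libraries.

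Ccl7, a monocyte attractant that shares Ccr2 with Ccl2, was at 8.60, 10.6 and 13.8 CPM in WT, 16.5, 24.4 and 23.9 in Per1KO, and 11.9, 25.7 and 26.8 in Per2KO. It was above WT on each day in both knockouts, by 1.91, 2.31 and 1.73 times in Per1KO and by 1.38, 2.43 and 1.94 times in Per2KO, although the Per2KO library of day 0 lay below the WT library of day 5. Unlike that of Ccl2, its day 5 level was above day 0 in WT as well. It was 1.61 times that of day 0 in WT (1.11 to 2.32), 1.45 times in Per1KO (1.32 to 1.60) and 2.25 times in Per2KO (2.04 to 2.49). The rise passed the test on day 3 (0.70 ± 0.18, adjusted p = 0.0208) and day 5 (0.80 ± 0.18, adjusted p = 0.00836), and the interaction was 0.34 with an adjusted p of 0.596. The call of day 5 was lost without Per1KO (adjusted p = 0.0605) and without Per2KO (0.120), and that of day 3 without either (0.157 and 0.279) and without day 5 (0.0639). Against WT the fitted difference was 0.98 ± 0.19 in Per1KO (adjusted p = 0.0102) and 0.91 ± 0.19 in Per2KO (adjusted p = 0.0135). Both calls were lost without day 3 (adjusted p of 0.0929 and 0.140) and without day 5 (0.0857 and 0.128), and that of Per2KO also without Per1KO (0.0549).

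Cxcl1, a neutrophil attractant, had the lowest median of the 5 chemokines per length over the 9 libraries, although in WT the median of Cxcl5 was lower (0.590 TPM, beside 0.882 for Cxcl1). It was at 2.54, 0.364 and 0.658 CPM in WT, which are 18, 2 and 3 counts. It was at 8.08, 4.78 and 2.40 CPM in Per1KO and at 9.26, 3.29 and 2.58 CPM in Per2KO. Every genotype was highest on day 0, and both knockouts were above WT on each day. Only the Per1KO library of day 5 overlapped the range of WT, whose highest value was that of day 0. The fall with differentiation was -1.26 ± 0.27 on day 3 (adjusted p = 0.00991) and -1.85 ± 0.28 on day 5 (adjusted p = 0.00139). The first was lost without Per2KO (adjusted p = 0.159), and the second held in each fit that left out a genotype or a day. Against WT Cxcl1 was higher by 2.17 ± 0.35 in Per1KO (adjusted p = 0.00498) and 2.08 ± 0.35 in Per2KO (adjusted p = 0.00574), and without day 5 the adjusted p was 0.0503 and 0.0598. With so few WT counts the ratio on day 3 is poorly bounded: 13.1 (3.59 to 109) in Per1KO and 9.02 (2.46 to 75.2) in Per2KO.

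Cxcl5, which shares Cxcr2 with Cxcl1, was at 8.46 CPM in WT, 9.50 in Per1KO and 9.83 in Per2KO on day 0. The ratio to WT on day 0 was 1.12 (0.857 to 1.49) in Per1KO and 1.16 (0.887 to 1.54) in Per2KO, intervals that include 1. On days 3 and 5 it was at 9.16 and 5.47 CPM in Per1KO and at 10.7 and 7.42 CPM in Per2KO. In WT the 60 counts of day 0 were followed by 0 on day 3 and 2 on day 5. Against the floor of 3 counts in a library, the WT level of day 3 was at least 15.5-fold lower than that of day 0 (the exact 95% interval of the ratio, which also holds the error of the day 0 count, reaches up to 0.0819), and that of day 5 was 0.0519 times day 0 (0.00614 to 0.196). On day 3 the knockouts were at least 16.8-fold (Per1KO) and 19.6-fold (Per2KO) higher than WT by the same floor, with exact lower limits of 13.6 and 15.8, and on day 5 the ratios were 12.5 (3.41 to 104) and 16.9 (4.64 to 140).

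The response of Cxcl5 to differentiation differed between knockouts and WT by the interaction test (adjusted p = 0.0151). Cxcl5 was the only gene of the 6 tested to pass it, where 4.95% of all genes did. The adjusted p lay between 2.16e-04 and 0.0495 over the 9 other settings. The day effects over all genotypes did not pass (adjusted p of 0.462 and 0.191), and neither did the averages over days against WT (1.54 ± 0.78, adjusted p = 0.204, and 1.80 ± 0.78, adjusted p = 0.147). Without the libraries of day 0 the latter passed, with an adjusted p of 0.00588 and 0.00419. In the knockout libraries alone the change of Cxcl5 by day 3 was 0.03 ± 0.14 (adjusted p = 0.860), and it fell by day 5 (-0.60 ± 0.15, adjusted p = 0.0111).

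**Figure D2:**
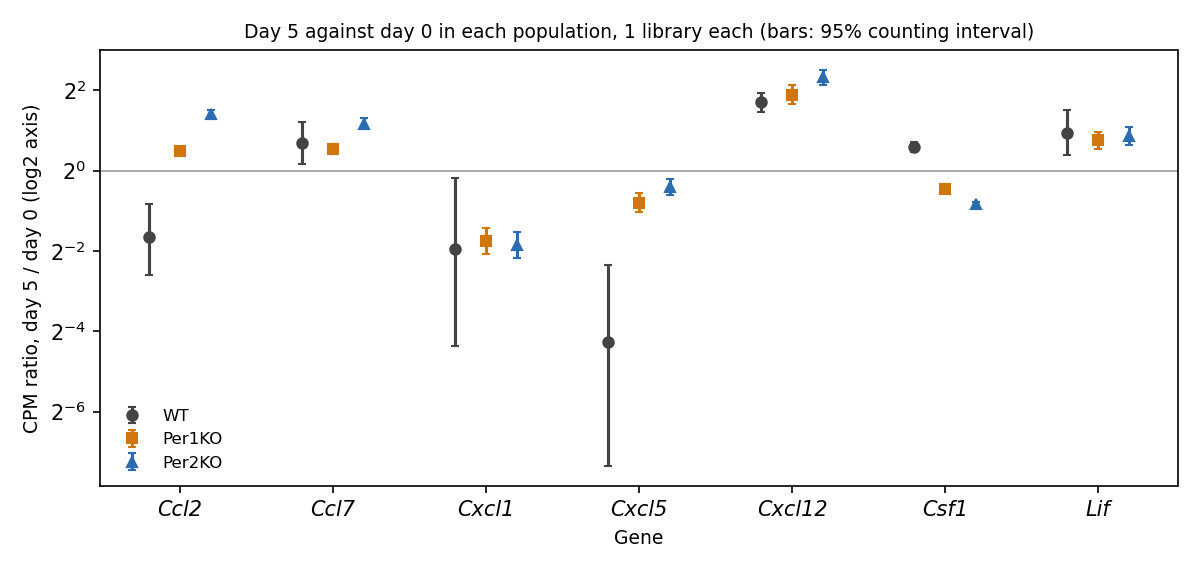
Ratio of the day 5 library to the day 0 library (log2 axis, grey line at 1) of the 7 genes other than Il6 in WT, Per1KO and Per2KO, with exact 95% counting intervals and no replicates. Ccl2 lies below 1 in WT and above 1 in both knockouts, Csf1 the other way round, Cxcl5 in WT at 0.0519, and Ccl7, Cxcl12 and Lif above 1 in all 3 genotypes.

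Cxcl12, the ligand of Cxcr4, was the only chemokine of the 5 with lower levels in the knockouts. It was at 33.0, 34.2 and 107 CPM in WT on days 0, 3 and 5, at 4.07, 19.4 and 15.0 in Per1KO and at 5.74, 24.6 and 28.7 in Per2KO. All 6 knockout libraries lay below all 3 WT libraries, as they did for 8.09% of the genes tested. On day 0 the level was 0.123 times that of WT in Per1KO (0.102 to 0.150) and 0.174 in Per2KO (0.146 to 0.207). The ratios were nearest to 1 on day 3, at 0.566 and 0.717, and were 0.140 and 0.268 on day 5. The steps came at different times: in the knockouts the level on day 3 was 4.76 and 4.28 times that of day 0, and in WT it was 1.04 times (0.852 to 1.26), with day 5 at 3.13 times day 3 (2.64 to 3.72).

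In the fit Cxcl12 rose by 1.57 ± 0.41 on day 3 (adjusted p = 0.0230) and 1.95 ± 0.41 on day 5 (adjusted p = 0.00651). The day 5 call was lost without Per1KO (adjusted p = 0.0533) or Per2KO (0.0816), and that of day 3 without either (0.241 and 0.231), without day 5 (0.0659) and with no filter on low counts (0.0940). Against WT it was lower by -2.30 ± 0.42 in Per1KO (adjusted p = 0.00905) and -1.73 ± 0.41 in Per2KO (adjusted p = 0.0242). Without day 5 the adjusted p was 0.117 and 0.168, with no filter on low counts 0.0515 and 0.108, and in Per2KO it was 0.0890 without day 0 and 0.0750 without Per1KO. The interaction did not pass (1.16, adjusted p = 0.308), but did without day 5 (2.12, adjusted p = 6.70e-04). Most fibroblast markers were lower in the knockouts, as Cxcl12 was: 5 of the 7 (Cd34, Dpt, Pi16, Col1a1 and Pdgfra) were called lower in both knockouts, where 8.75% of all genes were. Col1a1 was lower by -3.47 ± 0.22 in Per1KO and -3.31 ± 0.22 in Per2KO (adjusted p of 5.88e-05 and 7.44e-05). The calls of Col1a1 and Cd34 held in every alternative fit, while those of Pdgfra were lost without day 5 (0.0560 and 0.0592), those of Pi16 without day 3 or day 5 and in Per2KO also without Per1KO (0.0740 to 0.126), and that of Dpt in Per2KO without day 3 (0.0663). The list summed to 1146 to 4822 CPM in WT and 242 to 1640 CPM in the knockouts, none of its 7 markers was at 0 everywhere, and the other two, Dcn and Ly6a, were not called against WT. Dcn was at 51.5 to 602 CPM in WT and 6.56 to 813 in the knockouts, Ly6a at 207 to 413 and 140 to 485 CPM, and both were called higher in the interaction (2.76 ± 0.35 and 1.97 ± 0.37, adjusted p of 0.0119 and 0.0320, lost for Dcn without day 5 at 0.0619 and for Ly6a without Per2KO at 0.0564). Dpt was called lower in the interaction (adjusted p = 0.0398), a call that held in every alternative fit. Of all genes 3.50% were called higher there and 1.45% lower. The part of the fibroblast list in the Cxcl12 result was not tested. In bulk RNA fewer cells of a type and less RNA per cell cannot be told apart.

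Csf1, the macrophage growth factor, had the highest median level per length over the 9 libraries. By the longest transcript Ccl2 was above it in the Per2KO libraries of days 3 and 5 (113 and 109 TPM, beside 95.8 and 81.7 for Csf1). In Per1KO Ccl2 and Csf1 were nearly level on day 3 (97.0 and 96.8 TPM) and at 87.9 and 76.5 TPM on day 5. This order depends on the length used: with the mean transcript length the medians over the 9 libraries were 117 TPM for Csf1 and 45.0 for Ccl2. Csf1 was at 155, 119 and 234 CPM in WT, 171, 150 and 126 in Per1KO, and 233, 148 and 131 in Per2KO. WT ended at its highest level and both knockouts at their lowest: day 5 held 1.51 times the day 0 level in WT (1.39 to 1.65), 0.734 times in Per1KO (0.709 to 0.760) and 0.561 times in Per2KO (0.543 to 0.579). The knockouts lay above WT on day 0 (1.11 and 1.51 times) and day 3 (1.26 and 1.24 times) and below it on day 5 (0.539 and 0.559 times). The differences from WT over the 3 days were -0.17 ± 0.27 (adjusted p = 0.687) and -0.01 (adjusted p = 0.992), and the day effects over all genotypes did not pass either (adjusted p of 0.264 and 0.562). In the knockouts alone Csf1 fell on day 3 (-0.43 ± 0.12, adjusted p = 0.0214) and day 5 (-0.65 ± 0.12, adjusted p = 0.00372). The interaction was -0.69 (adjusted p = 0.387), and -1.25 (adjusted p = 0.0435) without day 3, where it compares day 5 with day 0 alone.

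Lif, a growth factor for myoblasts, was higher at each later day in each genotype. Its level was 7.19, 9.47 and 13.8 CPM in WT, 6.80, 8.89 and 11.5 in Per1KO, and 5.88, 7.65 and 10.7 in Per2KO. Day 5 held 1.92 times the level of day 0 in WT (1.31 to 2.84), 1.69 times in Per1KO (1.46 to 1.94) and 1.81 times in Per2KO (1.56 to 2.11). The rise passed on day 5 (0.84 ± 0.14, adjusted p = 0.00184) and not on day 3 (0.39 ± 0.14, adjusted p = 0.0602), though it did on day 3 in the knockout libraries alone (0.38, adjusted p = 0.0381). Without Per1KO or Per2KO the day 5 value was 0.90 and 0.84, with an adjusted p of 0.0560 and 0.0547. Lif was lower than WT on every day in both knockouts, but the differences of -0.15 ± 0.14 and -0.33 ± 0.14 did not pass (adjusted p of 0.494 and 0.144). The interaction was -0.08 with an adjusted p of 0.881.

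Il6 was close to the limit of detection and did not pass the filter on low counts, so it was not tested. It had 1, 6 and 2 counts in WT, 12, 4 and 3 in Per1KO, and 22, 9 and 9 in Per2KO. Scaled, these lay between 0.0720 and 0.432 CPM in the knockouts and between 0.141 and 1.09 CPM in WT. The groups overlapped, and the floor of 3 counts is 0.423 to 0.658 CPM in the WT libraries. On day 3 the 4 and 9 knockout counts were 0.0757 times (0.0157 to 0.319) and 0.170 times (0.0541 to 0.581) the WT level, which lay below it beyond counting error. On days 0 and 5 the intervals of all 4 ratios to WT include 1, so no difference was detectable at this depth on those days.

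**Figure D3:**
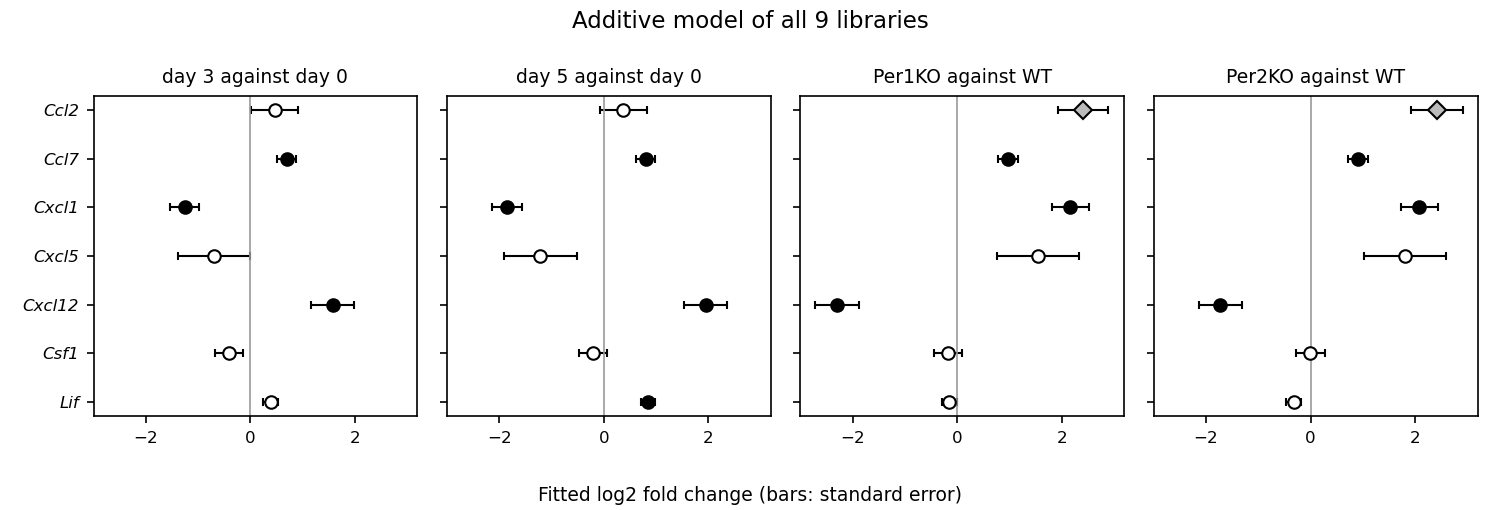
Fitted log2 fold changes with standard errors of the 7 tested genes in the additive model, for day 3 and day 5 against day 0 and for Per1KO and Per2KO against WT. Filled symbols passed an adjusted p of 0.05, open symbols did not, and grey diamonds mark Ccl2 against WT, which was not tested because the gene was chosen on it. Cxcl12 lies opposite to Cxcl1 in the day and knockout comparisons.

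Across the 7 tested genes, Ccl7 and Cxcl12 were called higher and Cxcl1 lower on day 3, where 35.0% of all genes were called (18.1% higher, 16.9% lower). On day 5 Ccl7, Cxcl12 and Lif were higher and Cxcl1 lower, where 46.1% of all genes were called (23.2% higher, 22.9% lower). The median change of the 7 was 0.39 on day 3 and 0.38 on day 5, beside -0.01 over all genes on both days. Between days 3 and 5 edgeR called none of the 7, 1 had an unadjusted p under 0.05, DESeq2 called none of them either, and 1.79% of all genes were called. Without WT edgeR called 1, Cxcl5 (-0.63 ± 0.15, adjusted p = 0.0448). Among the 6 genes other than Ccl2, 3 were called against WT in each knockout (Cxcl1 and Ccl7 higher, Cxcl12 lower), where 19.3% of all genes were called in Per1KO (9.26% higher, 10.1% lower) and 19.9% in Per2KO (9.31% higher, 10.6% lower). In both knockouts at the same time 8.05% of genes were called higher and 8.75% lower. The list was drawn up with results of this contrast known, so these shares say nothing about the genes as a group. In the 6 knockout libraries alone 6 of the 7 passed on day 3, where 57.7% of all genes did, and all 7 on day 5, where 64.4% did. Ccl2, whose choice used the levels of these libraries, is counted on both days.

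Between Per1KO and Per2KO, whose libraries have like depth, none of the 7 was called by edgeR or by DESeq2, and none had an unadjusted p under 0.05 in edgeR. The fitted differences (Per1KO minus Per2KO) ran from -0.57 for Cxcl12 to 0.18 for Lif. Of all 13324 genes edgeR called 0 (0% of those tested), 88 had an unadjusted p under 0.05, and DESeq2 called 1. Single pairs of libraries did differ beyond counting error, as for Cxcl12 on day 5 (Per1KO at 0.524 times Per2KO, 0.475 to 0.577) and Ccl2 on day 0 (1.57 times, 1.44 to 1.71), with no replicate to judge them by.

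Receptor mRNA for Cxcl12, Lif and Il6 was present, and that for Csf1 and for the monocyte and neutrophil attractants was near 0. Of 14 receptor genes 5 passed the filter on low counts: Cxcr4, Ackr3, Il6ra, Il6st and Lifr. Csf1r, the receptor of Csf1, had 0 to 11 counts in any library, Ccr2, which binds Ccl2 and Ccl7, had 0 to 2, and Cxcr2, which binds Cxcl1 and Cxcl5, had 0 or 1. Cxcr4, the signalling receptor of Cxcl12, was at 15.9, 33.1 and 30.7 CPM in WT, 10.4, 50.1 and 35.7 in Per1KO, and 7.04, 47.0 and 41.5 in Per2KO, so every library of days 3 and 5 lay above every library of day 0, as for 16.5% of genes. It rose by 1.78 ± 0.31 on day 5 (adjusted p = 0.00269, and 0.0519 without Per1KO). Lifr rose by 1.38 ± 0.46 (adjusted p = 0.0403, and 0.278 without Per1KO, 0.251 without Per2KO and 0.187 with no filter on low counts) and the shared chain Il6st by 1.05 ± 0.18 (adjusted p = 0.00226). No receptor was called against WT by edgeR or DESeq2 in either knockout (lowest adjusted p in edgeR 0.139), and 2 had an unadjusted p under 0.05 in Per1KO and 0 in Per2KO. Ackr3, a scavenging receptor that takes up Cxcl12, went from 182 to 71.4 and 45.0 CPM in WT and was at 133, 107 and 95.6 CPM in Per1KO and 110, 113 and 113 in Per2KO, and its interaction passed (1.48 ± 0.28, adjusted p = 0.0320, and 0.100 without Per2KO). Of all genes 4.95% passed the interaction test, and 23.2% were called higher on day 5. The median change of the 5 receptors on day 5 was 1.05, beside -0.01 over all genes.

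**Figure D4:**
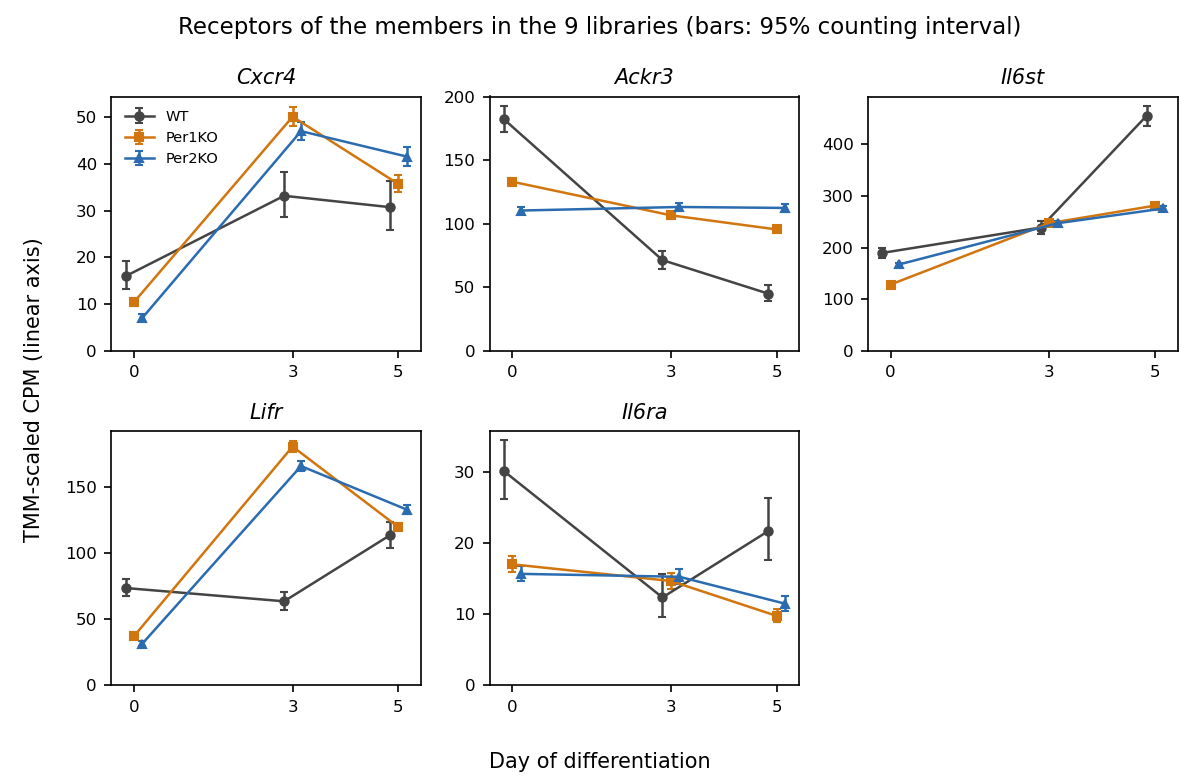
TMM-scaled CPM (linear axis) of the 5 tested receptor genes against day of differentiation, with 1 point per library, lines joining each genotype and bars for the exact 95% counting interval. Cxcr4, Lifr and Il6st are higher on day 5 than on day 0 in all 3 genotypes, and Ackr3 declines to 45.0 CPM in WT while staying at 95.6 CPM or above in the knockouts.

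Few other chemokines reached the level needed for a test: 5 of 30 passed the filter, and 7 had 0 counts in all libraries, among them Cxcl2 and Ccl3. Others had low counts, such as Cxcl16, at 0.846 to 2.55 CPM in WT and 0.162 to 0.413 CPM in the knockouts, which was not tested. All 6 knockout libraries lay below all 3 WT libraries for 8.09% of the genes tested. Cxcl3, Pf4, Ppbp and Cxcl15, which lie between Cxcl5 and Cxcl1, stayed at or below 0.705 CPM. Ccl8 and Cxcl13 were called higher on day 5 (2.72 ± 0.23 and 2.54 ± 0.53, adjusted p of 8.38e-05 and 0.00561). On that day 23.2% of all genes were called higher. Cx3cl1, a membrane-bound chemokine for monocytes, was at 18.2 to 25.5 CPM in WT and 4.80 to 9.67 CPM in the knockouts, with -1.23 ± 0.21 in Per1KO (adjusted p = 0.00582, and 0.0622 without day 3 and 0.0915 without day 5) and -1.50 ± 0.21 in Per2KO (adjusted p = 0.00232). Cxcl13 was likewise lower in both, where 8.75% of all genes were. Of the 5, 0 were called higher than WT by edgeR or DESeq2, and 1 was higher at an unadjusted p under 0.05, in Per2KO. Ccl9 passed the interaction test, as 4.95% of all genes did (3.91 ± 0.80, adjusted p = 0.0406, and 0.120 without day 3 and 0.0525 without Per2KO). Like Cxcl5 it had few WT counts after day 0, with 36, 3 and 5, and in the knockouts it was at 4.05 to 20.4 CPM.

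Of 25 other cytokines 13 passed the filter. On day 5 Il15, an interleukin made by muscle, rose by 5.23 ± 0.34 (adjusted p = 2.43e-05), along with Il12a and Ctf1. Mif (-1.23 ± 0.17, adjusted p = 7.84e-04), Il34, the other ligand of the Csf1 receptor (-1.12 ± 0.16, adjusted p = 9.05e-04), Clcf1 and Il7 fell. Of all genes 23.2% were called higher on day 5 and 22.9% lower. Il34, Mif and Clcf1 were lower than WT in both knockouts, Il34 by -0.98 ± 0.16 and -1.09 ± 0.16 (adjusted p of 0.00495 and 0.00294), Il7 was higher in both, and Il12a lower in Per2KO. Over all genes 8.75% were called lower in both knockouts, 8.05% higher in both, and 10.6% lower in Per2KO. In the interaction 3 of the 13 passed, Il1rn, Il33 and Kitl, where 4.95% of all genes did. All had a change after day 0 that was less negative or more positive in the knockouts. That was the direction of 70.7% of all calls in the interaction. Il1rn, the interleukin 1 receptor antagonist, had 179, 2 and 4 counts in WT, or 25.2, 0.364 and 0.878 CPM, and was at 14.1 to 28.6 CPM in the 6 knockout libraries (interaction 4.69 ± 0.49, adjusted p = 0.00780). In the knockout libraries alone Il1rn fell too, though less, with -0.67 ± 0.16 on day 3 and -0.74 ± 0.17 on day 5 (edgeR, adjusted p of 0.0134 and 0.00782). Fits that left out a day or a genotype ended the calls of Il7 in all 3 comparisons, of Clcf1 in all 3, of Ctf1 on day 5, of Il34 in Per1KO (0.0637 without day 3, 0.0519 without day 5), of Mif in Per1KO and Per2KO, of Il12a in Per2KO and of Kitl in the interaction, with adjusted p up to 0.314, while Il15, Il34, Mif and Il12a on day 5 and Il1rn and Il33 in the interaction held in every fit.

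Of 21 genes of the NF-kB pathway, a known inducer of Ccl2, Cxcl1 and Il6 in inflamed cells, 19 passed the filter. None was called higher than WT by edgeR in a knockout (1 at an unadjusted p under 0.05 in each, and 1 by DESeq2). Of the 19, 4 were lower in Per1KO (Nfkbia, Relb, Tnip1 and Bcl3), where 10.1% of all genes were. In Per2KO 6 were lower (the same 4, Nfkbie and Traf1), where 10.6% of all genes were. The medians over the 19 were -0.31 and -0.25, beside -0.02 and -0.01 over all genes. Chuk, not called against WT by edgeR, lay the other way, at 49.9 to 61.3 CPM in WT and 67.0 to 92.8 CPM in the knockouts. All 6 knockout libraries lay above all 3 WT libraries for 9.83% of the genes tested. The list was drawn up with earlier results known, so these shares say nothing about it as a group. Nfkbia, the feedback inhibitor that NF-kB itself induces, was at 29.9 to 49.1 CPM in WT and 13.7 to 27.3 CPM in the knockouts (-1.07 ± 0.17 and -1.06 ± 0.17, adjusted p of 0.00415 and 0.00403). Its call in Per1KO was lost without day 5 (0.0688), as were those of Bcl3 in Per1KO without day 5 (0.0516) and in Per2KO without day 3 (0.0504). The calls of Relb, Tnip1, Nfkbie and Traf1 against WT were each lost in 4 to 8 of the other fits, with adjusted p up to 0.291. With differentiation 6 of the 19 rose by day 5, Relb by 1.01 ± 0.14 (adjusted p = 7.36e-04), and Traf1 fell, where 23.2% of all genes were called higher and 22.9% lower. Without Per1KO or without Per2KO the calls of Ikbkb, Ikbkg, Map3k14 and Nfkbie on day 5 were lost (adjusted p of 0.109 to 0.293), and those of Relb, Tnip1 and Traf1 held. Of the 15 genes of the gp130 and Stat3 pathway, which Lif and Il6 feed, Stat3 (0.93 ± 0.22, adjusted p = 0.00934), Cebpd and Il11ra1 rose on day 5, and Socs1 and Cish fell. The shares of all genes called on that day were the same 23.2% higher and 22.9% lower. Against WT Junb was lower in both knockouts (-0.90 ± 0.22 and -0.97 ± 0.22, adjusted p of 0.0280 and 0.0208) and Jak2 was higher in Per1KO. Over all genes 8.75% were called lower in both knockouts and 9.26% higher in Per1KO. The calls of Junb and Jak2 were lost without day 3, without day 5 and without the other knockout (adjusted p of 0.0578 to 0.253). The rise of Stat3 was lost without Per1KO (0.123) or Per2KO (0.103), that of Cebpd without Per1KO (0.109), and the fall of Cish without Per1KO (0.0701) or Per2KO (0.0590).

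Myogenin (Myog), the transcription factor that starts myoblast differentiation, moved with these comparisons too: it was at 124 to 1058 CPM in WT and 2.91 to 351 CPM in the knockouts, lower by -2.80 ± 0.72 and -3.18 ± 0.73 (adjusted p of 0.0325 and 0.0217). It was the only 1 of the 8 muscle markers that edgeR called against WT in either knockout. DESeq2 called 2 lower in Per1KO and 4 in Per2KO, and 4 and 5 were lower at an unadjusted p under 0.05 in edgeR. In the interaction 4 of the 8 were called higher (Ckm, Myog, Myh3 and Acta1), where 3.50% of all genes were, with a median over the 8 of 2.35. Myh3 and Acta1 were not called there without day 5 (adjusted p of 0.0909 and 0.135). No WT library, that of day 0 included, was below 140 CPM of Myh3 or 212 CPM of Acta1. The lowest knockout levels were 0.786 and 3.11 CPM, and in the knockouts alone both rose by day 3 (10.5 ± 0.37 and 8.89 ± 0.38). WT and knockout levels of these muscle genes were thus unlike on day 0. Cxcl5 was also called higher in the interaction. Whether the unlike day 0 levels of the muscle genes bear on the course of Cxcl5 was not tested. The muscle list summed to 3817 to 19596 CPM in WT and 1753 to 14058 CPM in the knockouts. The Myog calls were lost without day 3 (adjusted p of 0.108 and 0.0931), without day 5 (0.0899 and 0.0693), without the other knockout (0.0785 and 0.139) and with no filter on low counts (0.193 and 0.152). The part of the muscle list in the results above was not tested.

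By the Pearson correlation of log2 CPM over the 9 libraries, among 9213 protein-coding genes that averaged 10 CPM or more, the gene most like Ccl2 was S100a4 (r = 0.989), followed by Mosmo and Zup1. Those most like the others were Col4a1 for Ccl7 (0.992), Tlk1 for Cxcl1 (0.990), Tbc1d5 for Cxcl5 (0.982), Dnase2a for Cxcl12 (0.992), Trim39 for Csf1 (0.943) and Erbb2 for Lif (0.981). Il1rn was the third nearest to Cxcl5 (0.974). Among the 8 genes themselves the highest correlation was that of the cluster partners Cxcl1 and Cxcl5 (0.895), that of Ccl2 and Ccl7 was 0.786, and the lowest was that of Cxcl1 and Cxcl12 (-0.811). These are descriptions over 9 libraries that share 3 genotypes, 3 days and a gap in depth.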

How the data were processed

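The table holds whole-number counts for each Ensembl gene, which were taken as the authors deposited them. Per the submitters' processing notes, CASAVA 1.8, HISAT2 2.1.0 and the build mm10 were used. The counting program, annotation and use of strand are not given in the sources used here, so reads of antisense or overlapping genes may be included. Per the labels, poly(A) libraries were made with a TruSeq kit and read from 1 end. Of 47729 genes, 47224 matched a symbol, and 505 without a match made up no more than 0.0328% of a library.

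The 13324 genes that reached 1 CPM in 3 or more of the 9 libraries were tested. The quasi-likelihood test of edgeR 4.0.16 (with limma 3.58.1 in R 4.3.3) was used with TMM scaling, robust dispersions and Benjamini-Hochberg adjustment over all tested genes, and a gene was called at an adjusted p under 0.05. Genotype and day were fitted additively over the 9 libraries (4 residual degrees of freedom), so that the days serve as the replicates of a genotype and the genotypes as those of a day. The interaction of either knockout with days 3 and 5 left 3. P-values therefore speak of these cell populations only. Fits that left out a day or a genotype kept fewer residual degrees of freedom (2 in the additive fit of the knockout libraries alone), and the interaction kept the fewest. The p-values of those fits, whether they passed or not, rest on fewer libraries than those of the full fit. Levels are TMM-scaled CPM with exact Clopper-Pearson 95% intervals, ratios of single libraries have exact conditional binomial 95% intervals, and a count of 0 allows up to 3 counts. All of these describe counting error alone, because reads that carry no molecular identifier are not independent molecules. Total counts per library set the precision, and on average a knockout library held 7.82 times the counts of a WT library. TPM used the longest GENCODE M21 transcript. DESeq2 1.42.0, RLE scaling, other filters, protein-coding genes only, other transcript lengths, another prior count and leaving out each day or genotype were tried. The scripts were tested on simulated data.

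The 8 genes and all lists were chosen with earlier results of these data known. Named were the 8 genes, from each list up to 3 called genes with the largest change and a mean of at least 5 CPM for day 5 and for both knockouts against WT, the 3 genes with the most similar pattern, and genes at the same loci. Others were named after their values were seen, where a count of 5 or fewer needed it, beside one of the 8 genes (Ackr3, Ccl9, Il1rn, Ccr2, Cxcr2 and Csf1r) or as examples (Cxcl16 and Chuk).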

Additional observations from a re-analysis of the deposited data

Results flagged for a closer look

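Cxcl5, Ccl2 and Csf1 took another course over differentiation in the knockout libraries than in the WT libraries. For Cxcl5 the difference was tested, as the interaction of either knockout with days 3 and 5 in edgeR, with an adjusted p of 0.0151. The WT libraries of days 3 and 5 held 0 and 2 counts, against 228 to 517 in the knockouts. For Ccl2 the day 5 level was 0.316 times day 0 in WT and above day 0 in both knockouts, and for Csf1 it was 1.51 times day 0 in WT and below day 0 in both knockouts. The opposite directions of Ccl2 and Csf1 were seen in 1 library for each genotype and day. The Cxcl5 test likewise measures the WT response from 1 WT library of day 0. For Csf1 the interaction had an adjusted p of 0.387 over days 3 and 5 together, and of 0.0435 without day 3, which compares day 5 with day 0 alone. For Ccl2 the difference was not tested, because the gene was chosen on its level in the knockouts against WT.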

How the results depend on the processing

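The tests of the 7 genes were recomputed under each alternative, 434 values in all. Of these 377 kept direction and call, 27 lost a call, 11 gained one and 16 changed sign, 0 of the 16 being called in either fit, and 3 values of Ccl2 against WT, which carry no test, moved by over 1 SE (3.21 and 3.46 without day 0, and 1.90 in Per2KO without day 5). The calls lost or gained are given beside each gene. The changes of sign lay within these ranges over the fits that left out a day or genotype: for Ccl2 -0.14 to 0.94 on day 3, -0.35 to 0.92 on day 5 and -0.24 to 0.15 between the knockouts, for Cxcl5 -1.58 to 0.032 on day 3, for Csf1 -0.65 to 0.11 on day 5, -0.21 to 0.45 between days 3 and 5, -0.43 to 0.24 in Per1KO and -0.32 to 0.46 in Per2KO, for Cxcl12 -0.062 to 0.81 between days 3 and 5, and between the knockouts for Ccl7 -0.12 to 0.18 and for Cxcl1 -0.15 to 0.25. Csf1 in Per2KO was also at 0.075 with no filter on low counts and 0.030 with protein-coding genes only. For the genes of the other lists, 122 calls were recomputed in the same way, 0 reversed in any alternative, and 37 held in all of them. No fit with a replicate block was made, because each genotype and day has 1 library and the labels number no replicates, and the additive model compares genotypes within days. Leaving out a day or a genotype, which leaves fewer samples, moved the counts of called genes most: from 1147 to 7684 for day 3 against day 0, 2348 to 8586 for day 5 against day 0, 0 to 1393 for day 5 against day 3, 780 to 2814 for Per1KO against WT, 855 to 3138 for Per2KO against WT, and 219 to 1797 for the interaction. Of the 7 genes, between 0 and 6 were then called on day 3, 1 and 7 on day 5, and 0 and 1 between days 3 and 5. Of the 6 genes other than Ccl2, 0 to 4 were called in Per1KO, 0 to 3 in Per2KO and 1 to 2 in the interaction. With DESeq2, 733 genes were called between days 3 and 5, where edgeR called 238, 1 between the knockouts, and 1464 in the interaction, where edgeR called 659. With no filter on low counts, 370 were called between days 3 and 5 and 1 between the knockouts, and the median difference of all genes from WT moved from -0.02 to 0.12 in Per1KO and from -0.01 to 0.11 in Per2KO. With protein-coding genes only, 1605 and 1719 were called in Per1KO and Per2KO, where 2575 and 2652 were called among all genes. Other causes were not tested. The mean transcript length moved the median of Ccl7 to 32.4 TPM. Depth limits the WT values of Cxcl1, Cxcl5 and Il6, each at 6 counts or fewer in at least 2 WT libraries.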
